A study of Mus musculus with 4 samples.

Results

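Splicing factors and RNA helicases were examined in 4 samples of mouse hippocampus, each measured from total RNA on 1 Affymetrix Murine Genome array. The members were chosen by gene symbol alone: every probe set that the platform annotation gives to exactly 1 gene whose symbol starts with Srsf, Hnrnp, Sf3, Snrp, Prpf, U2af or Elavl, or with Rbm, Ddx or Dhx and a digit. This gave 134 probe sets of 98 genes, out of 12422 probe sets besides controls. The labels name the tissue and place all samples in a single group. The labels give no strain, sex, age or treatment, and do not say whether the samples came from separate animals, so the spread between them may be technical. The samples are called 1 to 4, which are names and not an order. Signals are quantile normalized intensities in array units, and fold values are ratios between samples for the same probe set, since signals of different probe sets cannot be set against each other.

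The spliceosome removes introns in steps. U1 recognises the 5′ splice site, U2AF and the U2 particle with its SF3 complex mark the 3′ end of the intron, and the U4/U6 and U5 particles then join with the help of the Prp factors. SR proteins mostly promote the use of exons to which they bind, and hnRNP proteins often oppose it. DEAD-box and DEAH-box helicases use ATP to open RNA duplexes and to remodel RNA with its proteins, in splicing and also in translation, decay and ribosome assembly. Hippocampal neurons add the neuronal Hu proteins, which bind AU-rich RNA, to this common machinery.

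The labelled tissue was checked against markers. Of 12 pan-neuronal markers listed, 11 were measured and all 11 had a mean signal above the median of all probe sets, as did 7 of 9 listed hippocampal subfield markers, 7 of 8 for astrocytes and 6 of 8 for oligodendrocytes. Sample 4 had the highest ratio of 3′ to 5′ control signal for Actb (1.84, 1.64, 1.51 and 2.03 in samples 1 to 4) and for Gapdh (0.887, 0.864, 0.981 and 1.15), a ratio that grows as RNA or its copy becomes less complete. The median deviation of the pan-neuronal markers from the mean of the other samples was -0.27 log2 units in sample 4, with 2 of 11 above it, and 0.27 in sample 1. In such bulk samples, fewer cells of a type and less RNA per cell cannot be told apart. Other cell types also differed between samples. Erythroid markers had a median deviation of 0.83 log2 units in sample 1 and -1.25 in sample 3, with Hba-a1, a haemoglobin chain, at 10256, 9251, 3630 and 6998 units. Oligodendrocyte markers had -0.38 in sample 3 and 0.38 in sample 4. Ttr, of the choroid plexus, gave 2630, 1236, 954 and 1820.2 units, highest in sample 1. Kl, the other analysed choroid plexus marker, gave 152, 202, 138 and 247 units, highest in sample 4. Whether RNA quality or cell makeup had a part in any value below was not tested.

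Splicing factors and helicases varied between the samples about as much as other genes. Of the 134 probe sets, 99 of 83 genes had a mean above the median of all probe sets and were analysed. The median range, the highest over the lowest sample, was 0.55 log2 units for the members and 0.53 for all 6211 analysed probe sets. The samples spanned 2-fold or more for 13 of 99 members (13.1%), against 14.4% of all analysed probe sets. Less than 1.5-fold was spanned by 56 members (56.6%), against 56.2% of all. These are the shares of all to set beside the family and list counts below. Of families not counted this way below, 6 of 9 SR and 3 of 6 Prp probe sets spanned less than 1.5-fold. So did 13 of 26 DEAD-box, 3 of 9 RBM, 1 of 4 Hu and 0 of 3 U2AF probe sets. No member passed the test for variance above what its signal level predicts, against 0% of all (limma, F test, one-sided, Benjamini-Hochberg adjusted over all analysed probe sets, smallest adjusted p of a member 0.371). Not passing it does not show that a member's variance matched that prediction. At an unadjusted p under 0.05 stood 7 members (7.07%), against 5.86% of all, close to the background. Without sample 4, the count of members with a 2-fold range was 7, and 6.65% of all probe sets reached it. Single values below are therefore given as measured, and none is called variable.

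**Figure D1:**
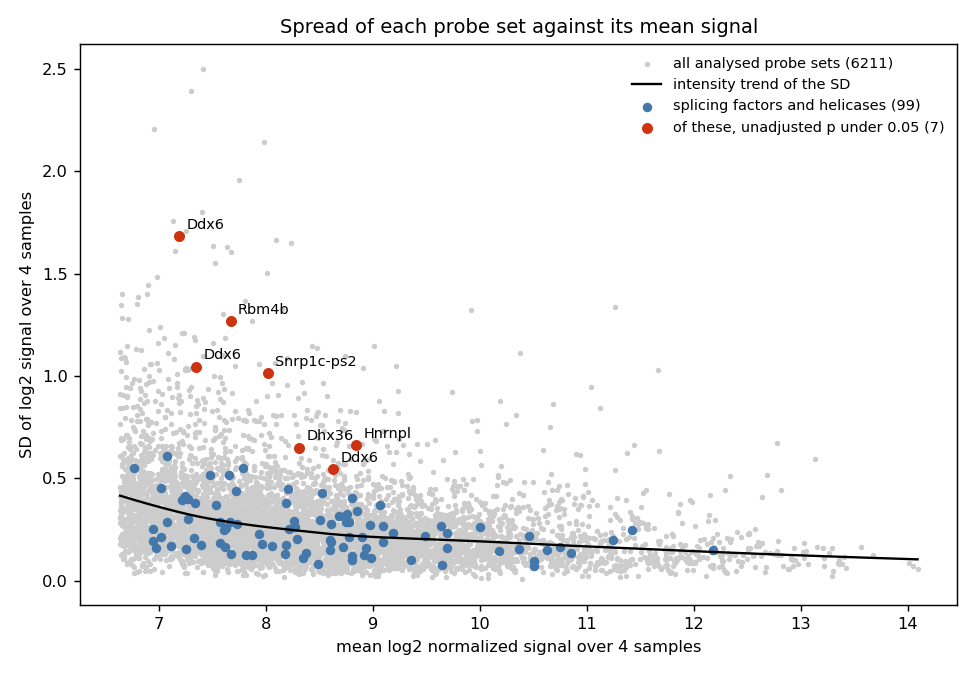
Each point is a probe set, with its mean log2 signal on the x axis and the SD of its log2 signal over 4 samples on the y axis; grey points are all 6211 analysed probe sets, blue the 99 members, red the 7 members at an unadjusted p under 0.05, and the line is the trend. Most members lie near the line, and 3 of the 7 red points belong to Ddx6.

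The members' medians lay close to those of all probe sets in every sample. Their median log2 deviation was -0.02, 0.07, 0.10 and -0.01 in samples 1 to 4, against 0.01, 0.01, 0.01 and 0.02 for all analysed probe sets. Sample 3 held the highest value of 33 of 99 members (33.3%), against 22.5% of all probe sets, and sample 1 the lowest value of 31 (31.3%), against 23.2%. Of 20 members with a letter before _at in the identifier, 10 were lowest in sample 1, against 29.7% of all such probe sets. Where that letter was r, 5 of 6 members were, against 37.2% of all with that letter. Of the 79 members with no letter, 21 were (26.6%), against 21.7%. Sample 4 was lowest for 29.3% of members and 30.6% of all. Between samples, the median absolute log2 difference of the members was smallest between samples 1 and 3, at 0.21, as it was for all analysed probe sets (0.21). It was largest between samples 3 and 4, at 0.28, against 0.29 for all, whose largest was 0.30, between samples 1 and 4. The Pearson correlation of samples 1 and 3 was 0.86 for the members and 0.95 for all. Members share arrays and often act in the same complexes, so these counts are not of independent observations.

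**Figure D2:**
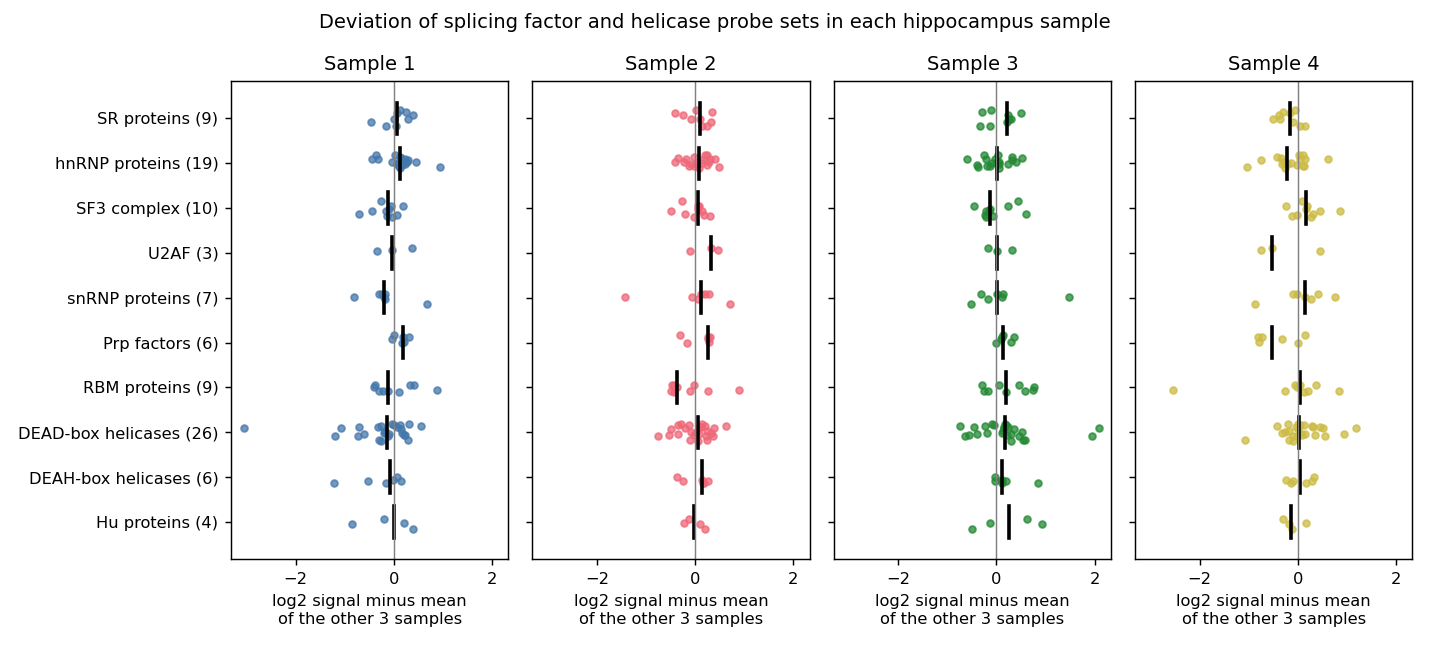
Each point is 1 analysed probe set of the family on the y axis (number of probe sets in brackets), and the x axis gives how far its log2 signal lies above or below the mean of the remaining 3 samples; black bars are family medians. The bars furthest from 0 are those of the Prp factors and U2AF in sample 4, at -0.53. In sample 2, the bars of the RBM proteins, U2AF and the Prp factors lie at -0.36, 0.33 and 0.27.

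A sample that stood apart from all others by at least 1.5-fold was rare among the members, as among all probe sets. Sample 4 was lowest by that margin for 6 members (6.06%), against 4.65% of all analysed probe sets, and highest for 3 (3.03%), against 2.48%. The 6 were probe sets of Rbm4b, Ddx6, Prpf31, Prpf38a, Prpf38b and Hnrnpul2, and the 3 were of Ddx27, Rbm39 and Sf3a3. Sample 1 was lowest for 4 members (4.04%), against 1.58%, namely Ddx18, Ddx3x, Ddx6 and Dhx36, and highest for 0, against 0.741%. Sample 3 was highest for 3 members (3.03%), against 0.918%, of which 2 were probe sets of Ddx6 and 1 of Elavl2, and lowest for 0, against 1.56%. Sample 2 was lowest or highest for 0 members, against 1.29% and 0.725%.

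The snRNP proteins form the cores of the spliceosomal particles. Of 10 probe sets for 8 genes, 7, each of another gene, were analysed, and 5 spanned less than 1.5-fold. Snrpb, a core Sm protein found in U1, U2, U4 and U5 particles, gave 4198, 5337, 4631 and 4397 units across the samples, with a mean of 4641 ± 497 (SD, n = 4). The Sm proteins Snrpe and Snrpg followed with 446, 505, 450.0 and 566 units for the first and 428, 514, 518 and 478 units for the second. All 3 were lowest in sample 1, by small margins, as were 23.2% of all analysed probe sets. The probe sets of Snrpb and Snrpe carry the letters r and f before _at. Of all probe sets with those letters, 37.2% and 35.1% were lowest in sample 1. Another Sm protein, Snrpd3, was not lowest in sample 1. It gave 191 and 196 units in samples 1 and 2 and 103 and 86.2 units in samples 3 and 4, a range of 2.27-fold (limma, adjusted p = 0.977). Snrpb2, a protein of the U2 particle, gave 181, 235, 179 and 264 units. Snrpc, of the U1 particle, spanned 1.19-fold.

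The widest range in this family belonged to Snrp1c-ps2, whose symbol marks a pseudogene. Its probe set, 101292_f_at, gave 170.2, 123, 563 and 383 units in samples 1 to 4. Samples 3 and 4 were thus both above samples 1 and 2, with a range of 4.56-fold (limma, unadjusted p = 0.00541, adjusted p = 0.547). The letter f in such an identifier marks probes that can also detect related sequences, so the source of this signal is uncertain.

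The SF3 complex and U2AF bind around the branch point and the 3′ splice site. Of 10 analysed SF3 probe sets, 7 spanned less than 1.5-fold, against 56.2% of all. Sf3b6, which contacts the branch point region, gave 423, 462, 419 and 485 units (447 ± 31.7, SD, n = 4). Sf3b5, a small subunit, gave 343, 463, 398 and 547 units. Both were highest in sample 4, as were 5 of the 10 SF3 probe sets, against 31.2% of all analysed probe sets. Some of the 10 carry the letter f or r before _at. Of all probe sets with those letters, 41.2% and 50.8% were highest in sample 4. Sf3a3 was the only SF3 gene with a 2-fold range: it gave 273, 228 and 267 units in samples 1 to 3 and 464 in sample 4, 2.03-fold (limma, adjusted p = 0.959). Without sample 4, its range was 1.19-fold. The probe sets of 2 other SF3 genes disagreed. For Sf3b1, the large scaffold subunit, 1 probe set gave 256, 329.9, 503 and 430.0 units and the other 212, 224, 181 and 203 units, so that sample 3 was highest by the first and lowest by the second. For Sf3a2, 92196_f_at gave 1546, 1567, 1419.6 and 1824 units and 92197_r_at gave 1223, 1545, 1275 and 1241 units.

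The U2AF genes, which recognise the polypyrimidine tract and the AG that follows it, ran in different directions. U2af2, the large subunit, gave 2296, 2588, 2755 and 3462 units in samples 1 to 4, with the highest value in sample 4. U2af1, the small subunit that pairs with it, gave 439, 569, 524 and 303 units and was lowest there. U2af1l4, a relative of U2af1, gave 525, 516, 396 and 329 units and was also lowest in sample 4. The ranges were 1.51-fold, 1.88-fold and 1.60-fold, and none passed the variance test (limma, smallest adjusted p = 0.942).

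The Prp factors were divided by sample 4. Of 6 analysed genes, 4 had their lowest value there, against 30.6% of all analysed probe sets, and their median log2 deviation in that sample was -0.53, or -0.17 over all 10 Prp probe sets with no signal filter. Prpf31, which stabilises the joined U4/U6 and U5 particles, gave 165, 172, 172 and 98.5 units in samples 1 to 4. Prpf38a and Prpf38b, which are related to each other, gave 168, 174, 182 and 98.9 units and 218, 218, 197 and 127 units. For these 3 genes, samples 1 to 3 lay within 1.11-fold of each other and sample 4 lay below them. Prpf19, the ubiquitin ligase of the complex that activates the spliceosome, gave 535, 627, 577 and 461 units. Prpf6 and Prpf8, both of the U5 side, did not share this: Prpf6 gave 714, 601, 653 and 659 units, and Prpf8, the scaffold at the catalytic centre, gave 831, 708, 891 and 898 units. No Prp factor passed the variance test (limma, smallest adjusted p = 0.994), and none reached a 2-fold range. The highest control ratios and the lowest pan-neuronal median were also those of sample 4, and a part of either in these values was not tested.

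**Figure D3:**
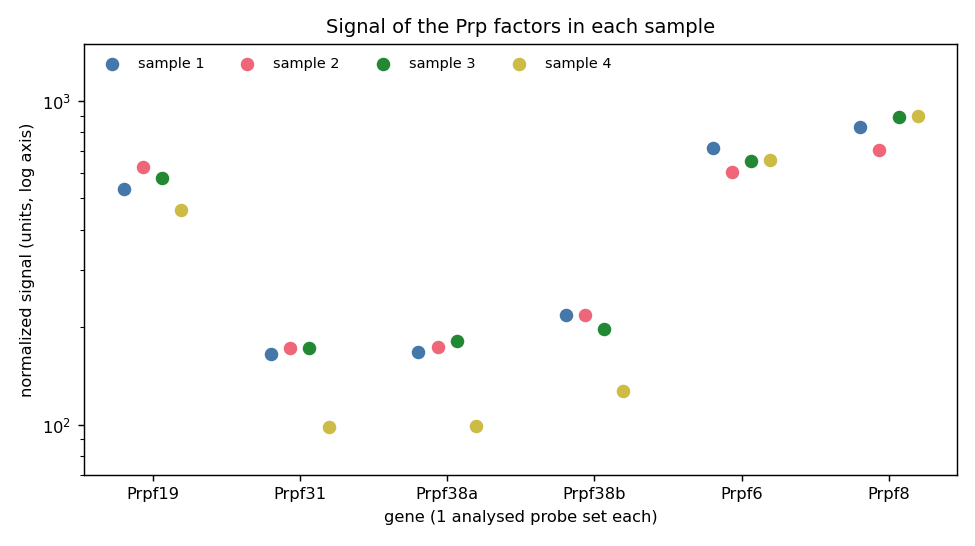
Normalized signal, in units on a log axis, of the 6 analysed Prp factor genes in each sample, 1 point a sample. Sample 4 lies below the other samples for Prpf19, Prpf31, Prpf38a and Prpf38b, and not for Prpf6 and Prpf8.

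Because 4 of these 6 genes were lowest in the same sample, the stretch of 150 bases just before the first listed start of each is shown, from the RefSeq promoter table of GRCm38.p6, 5′ to 3′ on the gene's strand. Capitals mark the CCAAT box (CCAAT, or ATTGG on the other strand) and a form of the ETS core (CCGGAA, or TTCCGG). Other forms of the ETS core were not searched and are not marked. The stretches lie at chr7:3629835-3629984 on the plus strand for Prpf31, chr4:108579337-108579486 on the minus strand for Prpf38a, chr3:108911730-108911879 on the minus strand for Prpf38b, chr19:10895081-10895230 on the plus strand for Prpf19, chr2:181601169-181601318 on the plus strand for Prpf6 and chr11:75486627-75486776 on the plus strand for Prpf8.

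Prpf31: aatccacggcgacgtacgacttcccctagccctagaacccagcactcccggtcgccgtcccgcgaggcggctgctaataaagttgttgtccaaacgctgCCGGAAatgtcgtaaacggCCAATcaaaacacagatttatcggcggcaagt
Prpf38a: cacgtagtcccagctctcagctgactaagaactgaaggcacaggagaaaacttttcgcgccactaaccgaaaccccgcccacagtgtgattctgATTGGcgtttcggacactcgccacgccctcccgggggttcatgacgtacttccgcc
Prpf38b: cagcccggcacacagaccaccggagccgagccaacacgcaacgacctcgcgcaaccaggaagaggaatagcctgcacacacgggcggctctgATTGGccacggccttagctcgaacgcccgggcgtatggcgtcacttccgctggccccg
Prpf19: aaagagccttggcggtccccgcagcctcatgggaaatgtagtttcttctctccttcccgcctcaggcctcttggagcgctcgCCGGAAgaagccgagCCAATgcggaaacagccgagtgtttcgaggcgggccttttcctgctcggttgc
Prpf6: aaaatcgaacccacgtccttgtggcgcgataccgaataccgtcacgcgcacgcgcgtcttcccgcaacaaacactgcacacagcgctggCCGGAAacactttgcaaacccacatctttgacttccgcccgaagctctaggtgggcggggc
Prpf8: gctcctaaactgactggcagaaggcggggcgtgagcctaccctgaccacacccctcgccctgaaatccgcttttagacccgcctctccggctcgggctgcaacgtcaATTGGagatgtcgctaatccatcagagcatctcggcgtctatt

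The CCAAT box was found in 5 of these 6 stretches, those of the 4 genes lowest in sample 4 and that of Prpf8. In the longer window of 250 bases, it was present in 36.3% of 17491 promoters of protein-coding genes and 50.6% of 89 member promoters. Shares of all promoters for the 150 bases shown were not counted, so the box is not read as particular to these genes. The letters CCGGAA or TTCCGG were found in 3 of the 6 stretches, those of Prpf19, Prpf31 and Prpf6. In 250 bases, these letters were present in 15.2% of all promoters and 41.6% of member promoters. The stretches of Prpf38a, Prpf38b and Prpf8 may hold other forms of the ETS core, which were not searched. Neither set of letters divides the genes as sample 4 did.

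Promoters of the members as a class held some of these letters more often than promoters at large. Of 98 member genes, 89 matched the table. In the 250 bases before the first listed start, the ETS core in the form searched was present in 37 of 89 member promoters (41.6%). It was present in 15.2% of 17491 promoters of protein-coding genes. The CCAAT box was present in 50.6% against 36.3%, and the GC box (GGGCGG or CCGCCC) in 59.6% against 42.7%. The letters TATAAA, read on the gene's strand only, were present in 5.62% against 8.39%. Member promoters had a median of 19 CpG dinucleotides, against 10. Such matches describe letters, not bound sites, and promoters rich in CpG hold GC-rich motifs more often.

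SR proteins carry an RNA recognition motif and a tail rich in arginine and serine. Of 16 probe sets for 9 genes, 9 of 8 genes were analysed, and 0 reached a 2-fold range, against 14.4% of all. Srsf2, which binds exonic enhancers, gave 2426, 2564, 2781 and 2010.5 units across the samples by 94017_s_at, with a mean of 2445 ± 324 (SD, n = 4), and 475, 341, 441 and 320.1 units by 95791_s_at. Srsf5 gave 1167, 1234, 882 and 877 units, and Srsf11 gave 627, 945, 897 and 762 units. Sample 4 was lowest for Srsf5 and for both Srsf2 probe sets, whereas Srsf11 was lowest in sample 1. Srsf1, the founding member of the family, gave 236, 195, 235 and 155 units by its only analysed probe set of 4. Srsf6 gave 454, 355, 568 and 405 units. In sample 4, 7 of the 9 probe sets lay below the other samples' mean (median -0.15 log2 units), against 2967 of all 6211. When arrays were scaled to their medians, 5 of the 9 were below it, against 2441 of 6211. Srsf9, Srsf4 and Srsf3 spanned 1.13-fold, 1.23-fold and 1.28-fold, and Srsf10 was too dim for analysis.

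The hnRNP proteins, which coat nascent transcripts, had 19 analysed probe sets for 16 genes, of which 14 spanned less than 1.5-fold, against 56.2% of all. Hnrnpdl gave 1867, 2039.9, 1622 and 1869 units in samples 1 to 4 by 96083_s_at, and its other analysed probe set was likewise highest in sample 2 and lowest in sample 3. Hnrnpa2b1, which also carries dendritic RNA, gave 1514, 1562, 1389 and 1359 units (1456 ± 97.4, SD, n = 4). Hnrnph1, which binds runs of guanine, gave 1200.0, 1105, 1307 and 1035 units. These differed by 1.26-fold at most. In sample 4, 7 of the 19 probe sets lay above the other samples' mean, against 52.2% of all. The median of the 19 there was -0.21 log2 units, against 0.02 for all analysed probe sets. Under median scaling it was -0.09, against 0.11 for all. In sample 1, 15 lay above the other samples' mean, against 51.4% of all, with a median of 0.12 that was 0.05 without sample 4.

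Hnrnpl was the exception in this family. This protein, which binds CA-rich RNA, gave 748, 590.1, 377 and 267 units in samples 1 to 4, a 2.80-fold range with no sample close to another (limma, unadjusted p = 0.0162, adjusted p = 0.660). Its relative Hnrnpll spanned 1.52-fold and was lowest in sample 2. Hnrnph2 gave 103, 161, 95.0 and 178 units. The probe sets of Hnrnpul2 gave 445, 345, 542 and 346 units and 340.0, 315, 345 and 198 units. Both were highest in sample 3, and by the second alone sample 4 stood well below the rest.

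The RBM proteins have in common only an RNA recognition motif. In sample 2, 7 of their 9 analysed probe sets lay below the other samples' mean, against 3038 of all 6211. Their median log2 deviation there was -0.36, or -0.20 over all 14 RBM probe sets with no signal filter. Rbm42 gave 983, 664, 853 and 847 units in samples 1 to 4. Rbm17, which acts at the 3′ splice site, gave 570.3, 360.3, 395 and 562 units. Rbm39, a relative of the U2AF large subunit, gave 324, 342, 492 and 317 units by 93267_at, highest in sample 3, and 199, 164, 186 and 328 units by 94689_at, highest in sample 4. Rbm14 gave 122, 125 and 224 units in samples 1 to 3, with sample 4 between the last of these and the others, a 1.84-fold range.

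Rbm4b had the widest range of this family. This regulator of exon choice gave 324, 325 and 301 units in samples 1 to 3 and 54.7 units in sample 4, still above the floor of 27.7 units below which signals were not resolved. The range was 5.94-fold (limma, unadjusted p = 0.00290, adjusted p = 0.451), and 1.08-fold without sample 4. It is read by a single probe set. The probe set of the cold-inducible Rbm3 is annotated to more than 1 gene and was not analysed here.

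The Hu proteins had their highest values in different samples. Elavl2, Elavl3 and Elavl4 are the neuronal members, and Elavl1 is found in most cell types. Elavl2 gave 143, 233, 358 and 201 units in samples 1 to 4, a 2.51-fold range (limma, adjusted p = 0.921), and Elavl3 gave 386, 401, 594 and 368 units. Both were highest in sample 3. Elavl4 gave 139.9, 111, 117 and 137 units and Elavl1 gave 233, 211, 148 and 179.6 units, with no peak in that sample. Without sample 3, the range of Elavl2 was 0.71 log2 units, against 1.33 with it.

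DEAD-box helicases were the largest family, with 37 probe sets for 23 genes, of which 26 for 17 genes were analysed. Of the 26, 6 (23.1%) reached a 2-fold range, against 14.4% of all analysed probe sets, and 3 of the 6 were of Ddx6. Ddx5 and Ddx17, related cofactors of splicing and transcription, spanned less than 1.5-fold. Ddx5 gave 1878, 1741, 1820.2 and 1459 units across samples 1 to 4, and Ddx17 gave 1422, 1561, 1390.1 and 1452. Ddx39b, which couples splicing with export of the mRNA, gave 1656, 1214, 1552 and 1267 units, lower in samples 2 and 4 than in 1 and 3. These ranges were 1.29-fold, 1.12-fold and 1.36-fold. Ddx18, a helicase of ribosome assembly, gave 62.2 units in sample 1 and 134, 119 and 143 units in samples 2 to 4, and its other probe set, under the filter, went the other way, with 101.3 units in sample 1 and 53.0, 52.1 and 66.5 units in samples 2 to 4. Ddx27, of the same pathway, gave 129.5, 185, 145 and 289.7 units. Ddx46, which acts with the U2 particle, spanned 2.04-fold and Ddx3x, whose Y-linked copy has a near-identical sequence, 1.83-fold by 101542_f_at and 1.33-fold by 93309_at.

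Ddx6 gave the widest range of all members, and its probe sets disagreed. Ddx6 is a helicase of mRNA storage and decay that sits in P-bodies. Of its 3 probe sets, 2 were designed on the same source sequence. By the first of these, 93964_s_at, it gave 29.7, 131, 430.1 and 269 units in samples 1 to 4, and by the second, 93965_r_at, 87.5, 110.4, 451 and 162 units. Both were highest in sample 3 and lowest in sample 1, with ranges of 14.5-fold and 5.16-fold, the first of which rests on a sample 1 value close to the floor (limma, unadjusted p = 0.00161 and 0.0111, adjusted p = 0.371 and 0.611). The third probe set, 96731_at, gave 459.9, 452, 523 and 226 units, so that sample 1 matched samples 2 and 3 and sample 4 was low (2.31-fold, limma, adjusted p = 0.818). Sample 1 was thus 8.33-fold below the mean of the others by the first probe set and 1.22-fold above it by the third. Without sample 3, the range of 93965_r_at was 1.86-fold, and without sample 1 that of 93964_s_at was 3.28-fold.

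**Figure D4:**
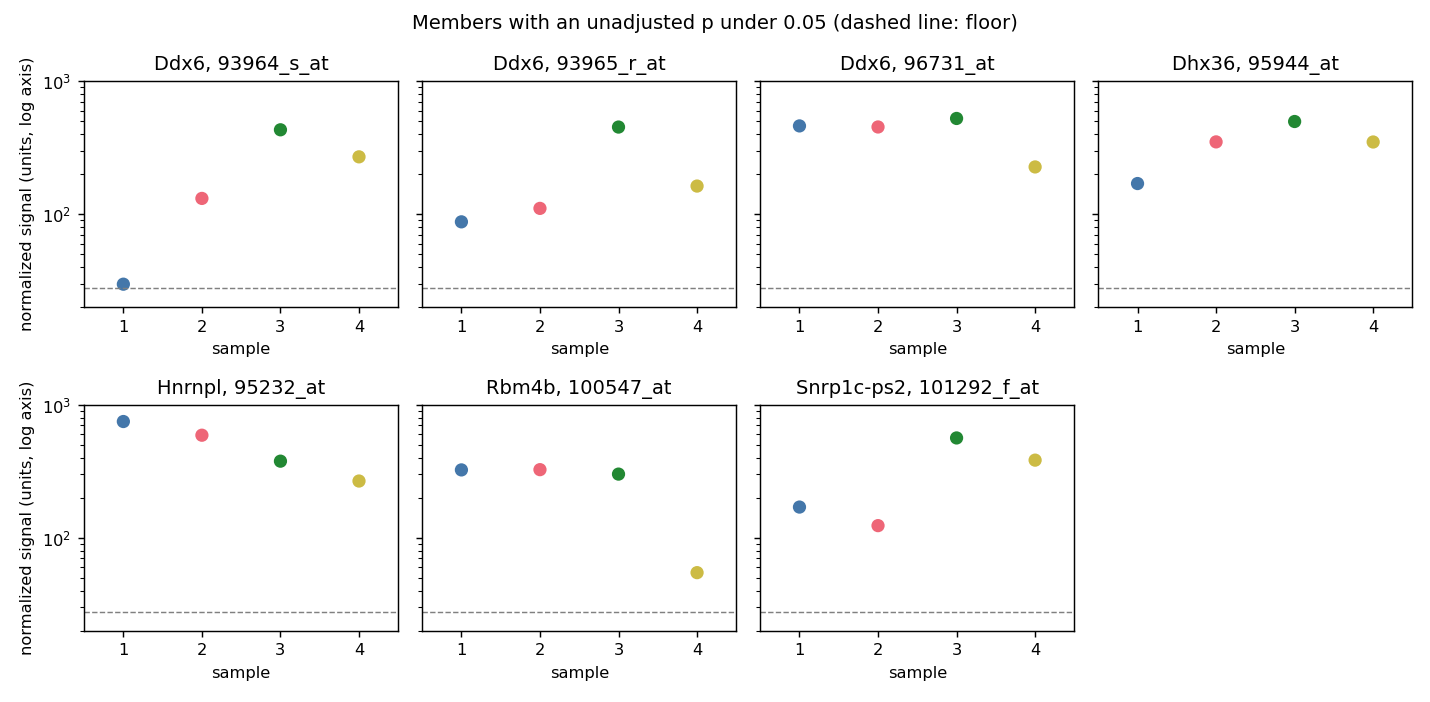
Normalized signal, in units on a log axis, of the 7 member probe sets with an unadjusted p under 0.05 in samples 1 to 4, with the floor of 27.7 units as a dashed line. Sample 3 is highest for all 3 Ddx6 probe sets, for Dhx36 and for Snrp1c-ps2, and sample 4 is lowest for Rbm4b, Hnrnpl and Ddx6 by 96731_at.

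DEAH-box helicases drive the larger rearrangements of the spliceosome and also act outside it. Of 6 analysed genes, 4 spanned less than 1.5-fold, against 56.2% of all analysed probe sets. Dhx15, which takes spent spliceosomes apart, gave 217, 256, 249.9 and 219 units across the samples, with a mean of 235 ± 20.6 (SD, n = 4). Dhx30, which has a role in mitochondrial ribosome assembly, gave 739.5, 592, 702 and 853 units. Dhx16, which acts just before the first step of splicing, gave 102, 155, 133 and 157 units. Dhx36, which unwinds G-quadruplexes, had the widest range of this family: it gave 169.7 units in sample 1 and 349, 496 and 348 units in samples 2 to 4, a 2.93-fold range (limma, unadjusted p = 0.0278, adjusted p = 0.734). Without sample 1 this range was 1.43-fold.

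Where a gene had several probe sets, they often named different samples. Of 15 genes with at least 2 analysed probe sets, 7 agreed on the highest sample, 4 on the lowest and 3, Ddx1, Ddx50 and Hnrnpdl, on both. Of the 35 member probe sets under the filter, 4 lay below the floor in all samples. Ddx4, Ddx10, Ddx41, Ddx49, Ddx51, Ddx52, Dhx32, Prpf39, Prpf4b, Rbm6, Rbm15, Rbm22, Rbm25, Snrpa1 and Srsf10 had no analysed probe set, which bounds their signal and does not show that they were absent.

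Genes of the same pathways outside the member rule were read from 5 lists. None of their analysed genes passed the variance test after adjustment (limma), and 1 had an unadjusted p under 0.05. Of 36 analysed other spliceosome proteins, 3 (8.33%) reached a 2-fold range, which 14.4% of all analysed probe sets did. Among the 3, Snw1 gave 102, 102, 254 and 157 units in samples 1 to 4 and Sart3 gave 187, 268, 209 and 424 units. The third, Acin1, the gene with the unadjusted p under 0.05 (limma, adjusted p = 0.838), gave 335, 385, 319.5 and 703 units. Of 21 other splicing regulators, 2 did so: Rbfox2 gave 241, 572, 345.5 and 343 units, and Sfpq gave 261, 179, 247 and 114 units. Of 8 SR protein kinases, 1 did so, Srpk2, with 253, 152, 197 and 118 units, while Top1 gave 627, 764, 919 and 676 units. None of 10 exon junction, export and decay factors did, and the widest were Smg5, with 160.1, 235.5, 123 and 172 units, and Nxf1, with 139, 107, 204 and 183 units. Of 5 other RNA helicases, Dicer1 gave 61.9, 94.5, 161 and 117 units and Aqr gave 206, 212, 206 and 341 units. The median ranges of these lists ran from 0.34 to 0.62 log2 units, around the 0.53 of all analysed probe sets.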

How the data were processed

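Expression was measured in 4 samples on 1 array each. The deposited values are linear intensities, 1 per probe set and sample; the software behind them is not given in the sources used here, and each array's trimmed mean (2% left out at each end) was 250.1. The 66 control probe sets were left out. With limma 3.58.1 (R 4.3.3), the intensities underwent quantile normalization and were raised to a floor at the 25th percentile (27.7 units) and put on the log2 scale. Probe sets whose mean log2 signal exceeded the overall median were analysed. With 1 group there was no contrast, so the variance of each probe set was tested against the intensity trend (one-sided F test, 3 residual and 5.20 prior degrees of freedom, Benjamini-Hochberg adjustment at 0.05); the test was tested on simulated data. The number of arrays limits the precision. Deviation is a sample's log2 signal minus the mean of the other 3. The members and gene lists were chosen with earlier results of these data known, and the 1.5-fold margin was chosen after values were seen. Named with values were, in each family, the 3 genes with the highest mean signal and the 3 with the largest range, every Elavl and U2af gene, genes with an unadjusted p under 0.05, and 2 genes of the largest range per pathway list. Where a gene had several probe sets, that of the highest mean stood for it; values of further probe sets outside this rule, such as the dim one of Ddx18, and the sample in which Hnrnpll was lowest were added after values were seen. Symbols came from the platform annotation; all 134 matched RefSeq through Entrez identifiers. Another normalization, floors, the filter, the trend, 1 probe set per gene and leaving out each sample were tried as alternatives. Protein sequences were not analysed here.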

Additional observations from a re-analysis of the deposited data

Results flagged for a closer look

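In 5 of 70 probe sets looked at, 1 sample lay far from the other 3, with a gap to its nearest neighbour above Dixon's 95% critical value for 4 samples. Chance flags about 1 in 20 groups, but these probe sets were named in part for wide ranges, so that rate does not apply to them; 6.02% of all analysed probe sets met the same mark. All 5 rest on sample 4, which was also most often the lowest (30.6%) and the highest (31.2%) among all analysed probe sets. The share of sample 4 among all flagged probe sets is not given here, so the 5 are not read as particular to these genes. Rbm4b was lowest there at 54.7 units, Prpf31 at 98.5 units, Prpf38a at 98.9 units and Hnrnpul2 by 104609_at at 198 units. Aqr, a helicase of the spliceosome outside the member rule, was highest there at 341 units. Sample 4 also had the highest Actb, Gapdh and pyruvate carboxylase 3′ to 5′ ratios, and their part in these values was not tested.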

How the results depend on the processing

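The count of members past the variance test after adjustment was 0 in the reported setting and in every alternative run (limma), with 5 to 7 at an unadjusted p under 0.05. Of all probe sets tested, 5.04% (without sample 4) to 9.57% (no signal filter) had such a p. The count of members with a 2-fold range, 13 of 99, was 25 of 134 with no signal filter (22.6% of all probe sets) and ran from 7 to 11 when each sample was left out in turn, lowest without sample 4. The median range of the members stayed between 0.39 and 0.59 log2 units. The members' median deviation changed sign under median scaling, to -0.0271 in sample 2 and 0.0635 in sample 4, where the medians of all analysed probe sets became -0.09 and 0.11. In sample 3 it was 0.0059 with no signal filter. Values near 0 also changed sign: sample 1, -0.02, was 0.0073 with no filter and 0.0059 with 1 probe set per gene, and sample 4, -0.01, was 0.02 without sample 3. The causes were not tested. The Prp factors' median in sample 4, -0.53, was -0.46 under median scaling and -0.17 with no filter. Without sample 4, the log2 range went from 2.57 to 0.11 for Rbm4b and from 0.81 to 0.06 for Prpf31. No paired analysis was possible because all samples form 1 group.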
